A study of Homo sapiens with 6 samples.

Results

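The 10 genes described here encode transcription factors and cofactors that set the identity of plasma cells or of the B cells they arise from: IRF4, PRDM1, IKZF1, IKZF3, POU2AF1, POU2F2, PAX5, BCL6, BACH2 and KLF13. They were listed by name from the 57905 gene identifiers counted, with earlier results of these data known, and all 10 were among the 14398 genes that passed the filter on low counts. The RNA came from H929 (NCI-H929), a human multiple myeloma cell line, which stands for 1 patient's tumour and not for normal plasma cells. After extraction, 5 μg of total RNA was kept at 37 °C for 1 h with 2 μg of recombinant IRE1 (3 IRE1-treated samples) or in the same buffer without the enzyme (3 controls), and the reaction was ended at 95 °C for 5 min. The enzyme therefore met purified RNA and not living cells. Each sample gave 1 library of poly(A)-containing mRNA. The design text calls the samples biological replicates without saying what separated them, so p-values measure the spread between these samples.

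IRE1 is a sensor of the endoplasmic reticulum whose RNase domain cuts XBP1 mRNA and, in regulated IRE1-dependent decay, other mRNAs. When a cut mRNA is purified by its poly(A) tail, the part 5′ of the cut is lost while the 3′ part is kept, and a count over the whole gene adds both parts. In the B lineage, PAX5, BCL6 and BACH2 hold the B cell state, PRDM1 (Blimp-1) represses them as the cell becomes a plasma cell, and IRF4 is needed in plasma cells and in myeloma cells. The Ikaros proteins IKZF1 and IKZF3 lie above IRF4 in myeloma and are degraded by cereblon when lenalidomide is given.

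For IRF4, PRDM1, IKZF1 and KLF13 the study designed primer pairs around predicted loops, so these 4 are not independent of the study's own choice of candidates. The study had picked IKZF1 and KLF13 by their exon fold change and exon-usage plots in these same libraries. It had added IRF4 and PRDM1 for their known function. Hexamers that fit the consensus for IRE1 sites (a C, then A, C or U, then GC, then A or C, then A or G) and lie between the loop primers are shown in capitals, with 12 bases on either side, because the loop primers span the region in which the study placed its cut. The paper took its sites from predicted stem-loops, a step not repeated here, so not every hexamer shown need be one of its sites. Such hexamers are common: the longest transcript holds 29 in IRF4, 25 in PRDM1, 25 in IKZF1 and 42 in KLF13. CUGCAG, the consensus the paper states, lay between the loop primers of IKZF1 only. By qRT-PCR with the loop primers, the study found each mRNA they were designed for significantly lower in enzyme-treated samples than in controls. The counts used here cover whole genes and do not measure the loop region alone. The sequences are those of the annotated transcripts (GENCODE release 44 on GRCh37), written 5′ to 3′, and a match is a description, not a measured cut.
IRF4 CUGCCA, 3′ UTR, exon 9 of 9, chr6:409544-409573, plus strand: uguggagcuccaCUGCCAuguacccaguag
PRDM1 CAGCCG, coding, exon 5 of 7, chr6:106553461-106553490, plus strand: cggagguugcucCAGCCGgagcaucccagg
PRDM1 CCGCCG, coding, exon 5 of 7, chr6:106553525-106553554, plus strand: ccuuuaccggggCCGCCGccagcaugaagg
PRDM1 CCGCCA, coding, exon 5 of 7, chr6:106553528-106553557, plus strand: uuaccggggccgCCGCCAgcaugaaggaca
IKZF1 CUGCAG, 3′ UTR, exon 8 of 8, chr7:50468770-50468799, plus strand: ugcuguguggguCUGCAGgugagcagacag
IKZF1 CCGCCA, 3′ UTR, exon 8 of 8, chr7:50468798-50468827, plus strand: aggacaggugugCCGCCAcccaagugccaa
IKZF1 CAGCAG, 3′ UTR, exon 8 of 8, chr7:50468820-50468849, plus strand: agugccaagacaCAGCAGggccaacaaccu
KLF13 CCGCAG, 3′ UTR, exon 2 of 2, chr15:31665634-31665663, plus strand: auucuauuuccuCCGCAGggaaugccagau

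The position of a site sets how much of the mRNA lies 5′ of it. That share was 64.5% of the transcript for IRF4, 32.2 to 33.5% for PRDM1, 35.8 to 36.6% for IKZF1 and 34.9% for KLF13. IKZF3, which had no such primer pair here, is shown by the 3 CUGCAG hexamers of its longest transcript, since it had the lowest log2 fold change of the 10 genes. All of them lie in the 3′ UTR, in exon 8 of 8, with 29.4%, 66.6% and 96.0% of the transcript 5′ of them.
IKZF3 CUGCAG, chr17:37920865-37920894, minus strand: cugaucacgguuCUGCAGauguauaaguca
IKZF3 CUGCAG, chr17:37917225-37917254, minus strand: uuuuguauuuuuCUGCAGagauggcguuuc
IKZF3 CUGCAG, chr17:37914344-37914373, minus strand: gaugaccauuguCUGCAGaaugacgaggaa

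CUGCAG was found in the longest annotated transcript of all 10 genes, from 1 site in PRDM1 and POU2F2 to 6 in PAX5, BCL6 and BACH2. The hexamer reads the same on both strands, and 88.0% of the 12225 protein-coding genes tested also hold it in their longest transcript. Among tested genes within 10% of the length of IKZF3, the share was 98.5%.

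The depth on genes was 19615715 to 25678499 counts per library. The cell line's label was met by plasma cell markers, and the markers of other cells were low or absent apart from CD3E. The summed level of SDC1, TNFRSF17, CD38, MZB1 and JCHAIN was 10271 to 10784 TPM (counts per kilobase of transcript, scaled to the same total in each library) in the controls and 10158 to 10583 in the IRE1-treated samples. In the controls JCHAIN alone was at 7305 TPM, while CD38 was at 10.3 TPM, below CD3E. Of the B cell markers, CD22 had 0 counts in every library, MS4A1 at most 1 count and CR2 from 2 to 7 counts. Of the T cell markers, CD3D and CD8A had at most 1 count in any library, while CD3E was at 38.2 TPM in the controls. Myeloid, erythroid, epithelial and fibroblast markers each summed to at most 1.498 TPM in any library.

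In the controls, POU2AF1, IRF4, PRDM1 and KLF13 were at over 100 TPM and BCL6 and PAX5 below 1 TPM. Levels between genes are given as TPM over the longest annotated transcript, as mean ± SD of 3 controls. POU2AF1 (OCA-B, the B cell coactivator of octamer-binding factors) was at 656 ± 4.28 TPM, with 197 of the tested genes above it. IRF4 was at 572 ± 14.2 TPM and PRDM1, the repressor that drives the plasma cell programme, at 216 ± 5.05 TPM. KLF13, a Krüppel-like zinc finger factor, was at 136 ± 2.18 TPM. These 4 genes stood above the rest by a step of 4.46-fold, from KLF13 to IKZF1.

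The Ikaros gene IKZF1 was at 30.5 ± 0.388 TPM and IKZF3 (Aiolos) at 6.87 ± 0.669 TPM, with POU2F2 (OCT2, an octamer-binding factor) between them at 12.4 ± 0.385 TPM. BACH2, the repressor that delays plasma cell differentiation, was at 4.74 ± 0.394 TPM. BCL6, the repressor of germinal centre B cells, and PAX5, which commits cells to the B lineage, were the lowest, at 0.536 ± 0.0438 and 0.320 ± 0.0714 TPM. The ranges of the 3 controls did not overlap for any neighbours in this order. The order of the first 2 depended on the length used: over the union of all exons, IRF4 was at 700.2 TPM and POU2AF1 at 370.4 TPM.

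**Figure D1:**
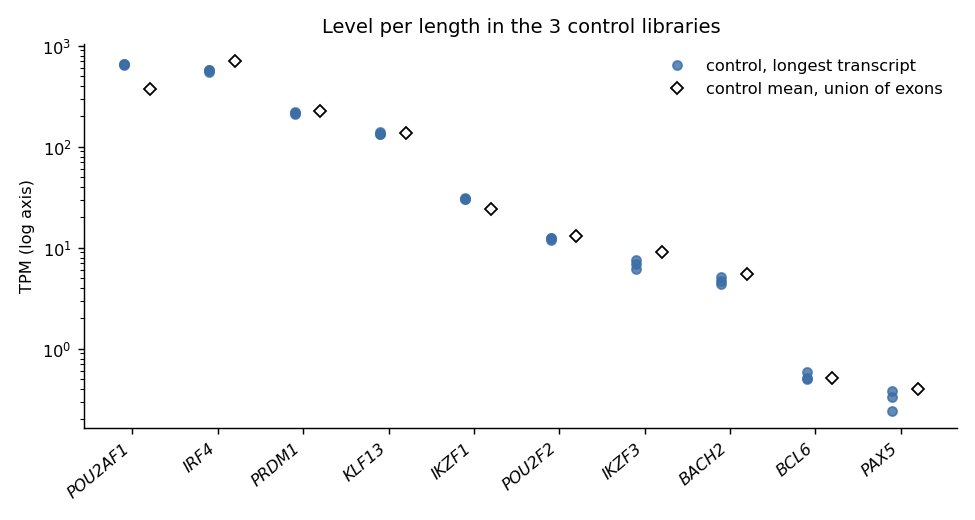
Level of each gene in the control libraries, as TPM on a log axis, ordered by the mean. Blue points are the 3 controls with the longest transcript as length and open diamonds the control mean with the union of exons; POU2AF1 and IRF4 exchange places between these lengths, and BCL6 and PAX5 stay below 1 TPM.

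Against this baseline, the question for each gene was whether its count differed between IRE1-treated and control RNA. With edgeR's quasi-likelihood test and Benjamini-Hochberg adjustment over all genes tested, 5 of the 10 passed an adjusted p of 0.05 as lower: IKZF3, BACH2, IKZF1, PRDM1 and KLF13. Of all genes tested, 12.4% passed as lower. None of the 10 passed as higher, where 10.3% of all genes did. The count of higher genes was also 0 at an unadjusted p under 0.05 and by DESeq2 and limma, and POU2AF1 alone had a log2 fold change above 0. In 8 of the 10 genes the highest treated value was under the lowest control value, against 20.0% of all genes. The median log2 fold change of the 10 was -0.28, and that of all genes tested 0.0045.

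Among the regulators of the plasma cell state, IRF4 (ENSG00000137265, chromosome 6, 391739 to 411443, plus strand) had 27885, 27833 and 27115 normalized counts in the controls and 25795, 25485 and 25894 in the IRE1-treated samples. The groups did not overlap, and the treated mean lay 6.83% below that of the controls. This is -0.10 ± 0.0422 (SE) on the log2 scale, which missed the threshold (adjusted p = 0.0948, edgeR). With library size alone it was -0.18 and passed (adjusted p = 0.0044, edgeR), and without the length and GC trend it was 0.0041. It also passed without IRE1-treated replicate 1, at -0.10 (adjusted p = 0.036, edgeR).

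PRDM1 (ENSG00000057657, chromosome 6, 106441338 to 106557814, plus strand) had 10302, 9962 and 9994 normalized counts in the controls and 8652, 8057 and 8773 in the IRE1-treated samples. Every treated sample was below every control, with replicate 2 the lowest. Its log2 change was -0.25 ± 0.0473 (SE) (edgeR, adjusted p = 0.0019). In the same libraries the ratio of PRDM1 to IRF4 counts was 0.369, 0.358 and 0.369 in the controls and 0.335, 0.316 and 0.339 after IRE1.

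The Ikaros genes IKZF3 and IKZF1 both fell. IKZF3 (ENSG00000161405, chromosome 17, 37913971 to 38020565, minus strand) had 666, 611 and 556 normalized counts in the controls and 326, 329 and 383 in the IRE1-treated samples. The groups lay far apart, and the treated mean was 43.4% below the control mean. IKZF3 thus changed by -0.82 ± 0.0890 (SE) on the log2 scale (edgeR, adjusted p = 4.6e-05).

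IKZF1 (ENSG00000185811, chromosome 7, 50343664 to 50472799, plus strand) had 1753, 1708 and 1746 normalized counts in the controls and 1270, 1411 and 1508 in the IRE1-treated samples. The controls were close together and the treated samples spread more widely below them. Between the groups IKZF1 changed by -0.31 ± 0.0604 (SE) on the log2 scale (edgeR, adjusted p = 0.0021). A gene on the opposite strand overlaps its exons.

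The Ikaros genes moved by unequal amounts. The ratio of IKZF1 to IKZF3 counts was 2.63, 2.79 and 3.14 in the controls and 3.90, 4.29 and 3.94 in the IRE1-treated samples, a difference of 0.50 on the log2 scale. The groups did not overlap, and a two-sided exact permutation test gave p = 0.1, the smallest that 3 samples against 3 allow.

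Of the octamer factors, POU2AF1 (ENSG00000110777, chromosome 11, 111222980 to 111326355, minus strand) had 17077, 16907 and 17424 normalized counts in the controls and 18180, 17331 and 16911 in the IRE1-treated samples. The groups overlapped. In log2 terms POU2AF1 differed by 0.03 ± 0.0452 (SE) (edgeR, adjusted p = 0.71), and its sign turned with library size (-0.049) and without the length and GC trend (-0.026). A gene on the opposite strand overlaps its exons.

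POU2F2 (ENSG00000028277, chromosome 19, 42590262 to 42700737, minus strand) had 800.0, 805 and 772 normalized counts in the controls and 739, 679 and 701 in the IRE1-treated samples. The groups did not overlap, but the change of -0.17 ± 0.0625 (SE) on the log2 scale missed the threshold (adjusted p = 0.065, edgeR). It passed with library size, at -0.24 (adjusted p = 0.013, edgeR), and without IRE1-treated replicate 1, at -0.20 (adjusted p = 0.030, edgeR). The ratio of POU2AF1 to POU2F2 counts was 21.3, 21.0 and 22.6 in the controls and 24.6, 25.5 and 24.1 in the IRE1-treated samples.

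BACH2 (ENSG00000112182, chromosome 6, 90636247 to 91006562, minus strand) had more counts than BCL6 and PAX5, at 389, 430.2 and 372 normalized counts in the controls and 317, 271 and 312 in the IRE1-treated samples. Every treated sample lay below every control. BACH2 changed by -0.40 ± 0.0924 (SE) on the log2 scale (edgeR, adjusted p = 0.0058), a call lost at -0.18 (edgeR, adjusted p = 0.21) with the length and GC trend removed. A gene on the opposite strand overlaps its exons.

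PAX5 (ENSG00000196092, chromosome 9, 36833266 to 37034265, minus strand) had 36, 27 and 19 raw counts in the controls and 13, 19 and 15 in the IRE1-treated samples. BCL6 (ENSG00000113916, chromosome 3, 187439165 to 187463513, minus strand) had 23, 23 and 19 in the controls and 15, 17 and 12 in the IRE1-treated samples. The normalized values of the groups overlapped for PAX5 and not for BCL6. PAX5 was at -0.61 ± 0.292 (SE) on the log2 scale (edgeR, adjusted p = 0.15). BCL6 was at -0.37 ± 0.302 (SE) on the same scale (edgeR, adjusted p = 0.41). Neither passed the threshold, which does not show that they did not differ. Both share exons with genes on the opposite strand, 1 for PAX5 and 2 for BCL6.

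KLF13 (ENSG00000169926, chromosome 15, 31619038 to 31727868, plus strand) had 8362, 8582 and 8495 normalized counts in the controls and 7299, 7612 and 7739 in the IRE1-treated samples. The groups did not overlap. KLF13 changed by -0.17 ± 0.0449 (SE) on the log2 scale (edgeR, adjusted p = 0.014). It no longer passed without control replicate 1, 2 or 3, with adjusted p-values of 0.053, 0.093 and 0.057 (edgeR).

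**Figure D2:**
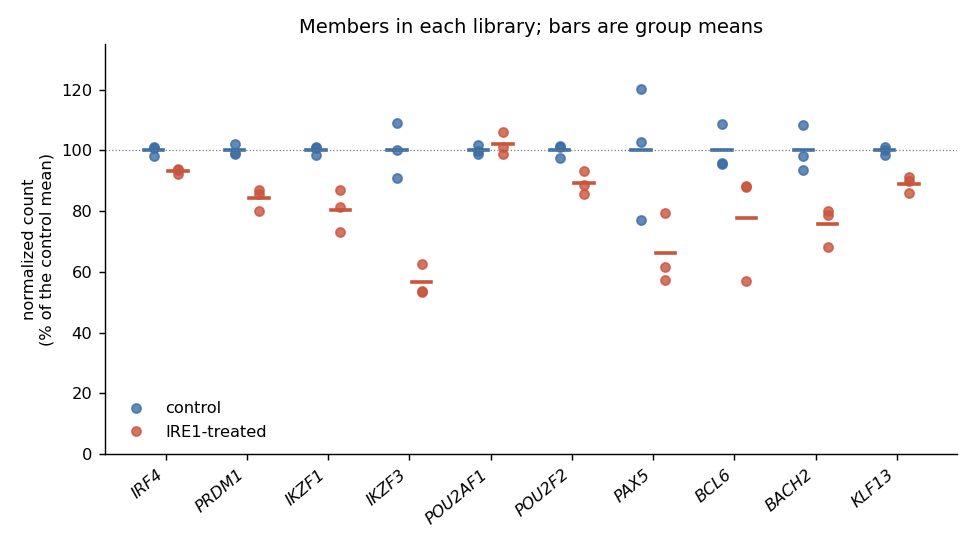
Normalized count of each gene in each library, as a percentage of its control mean, with bars at the group means. Blue points are controls and orange points IRE1-treated samples; IKZF3 shows the widest gap among the genes that passed, POU2AF1 overlaps, and the points of PAX5 and BCL6 rest on at most 36 counts.

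Of the 6 ratios between these genes, 5 did not overlap between the groups, and for each of those 5 the two-sided exact permutation test gave p = 0.1 (0.12 after Benjamini-Hochberg adjustment over the 6). The ratio of BACH2 to IRF4 differed by -0.30 and that of KLF13 to IRF4 by -0.066 on the log2 scale. The ratio of BCL6 to PRDM1 overlapped (p = 0.9 by the same exact permutation test). How often ratios of other gene pairs lie apart was not computed, and the trend with length described next remains in these ratios. Without that trend and that of GC content, POU2AF1 was at -0.026 and POU2F2 at -0.016 on the log2 scale, and KLF13 at -0.026 and IRF4 at 0.0041. IKZF1 was then at -0.17, IKZF3 at -0.57, PRDM1 at -0.14 and BACH2 at -0.18.

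Across all genes, the log2 fold change moved with transcript length. Its median was 0.17 in the fifth of protein-coding genes with the shortest transcripts (207 to 2253 bases) and -0.21 in the fifth with the longest (6310 to 44880 bases), and Spearman's rho across the 12225 genes, which are not independent replicates, was -0.58. The longest transcripts of the 10 factors run from 2875 bases for POU2AF1 to 9788 bases for IKZF3, where POU2AF1 alone lies under the median of 3922 bases over these genes, and their rho was -0.67 over 10 points that share the same libraries. With the trend of each library with length and GC content removed, 3 of the 10 passed as lower, where 5.35% of all genes did: IKZF3 at -0.57 (adjusted p = 2.3e-04), IKZF1 at -0.17 (adjusted p = 0.034) and PRDM1 at -0.14 (adjusted p = 0.028, all edgeR). BACH2 no longer passed, and KLF13 was at -0.026 (adjusted p = 0.71, edgeR).

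The length used for that trend also mattered. With the longest protein-coding transcript of each gene in place of the longest annotated one, an alternative chosen after the data were seen, IKZF3 was the one gene of the 10 that passed, at -0.56 (adjusted p = 3.5e-04, edgeR), where 4.49% of all genes passed as lower. PRDM1 was at -0.12 and IKZF1 at -0.15, each with an adjusted p of 0.064 (edgeR).

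**Figure D3:**
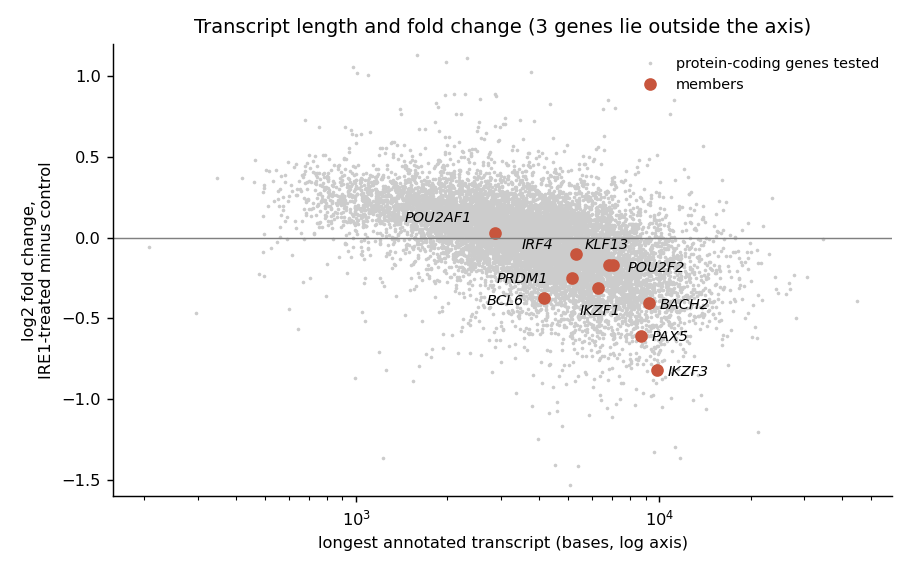
Log2 fold change (IRE1-treated minus control) against the length of the longest annotated transcript, on a log axis, for 12225 protein-coding genes (grey) and the 10 factors (orange). The grey cloud falls from left to right, and IKZF3 lies at its long end with a value of -0.82.

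**Figure D4:**
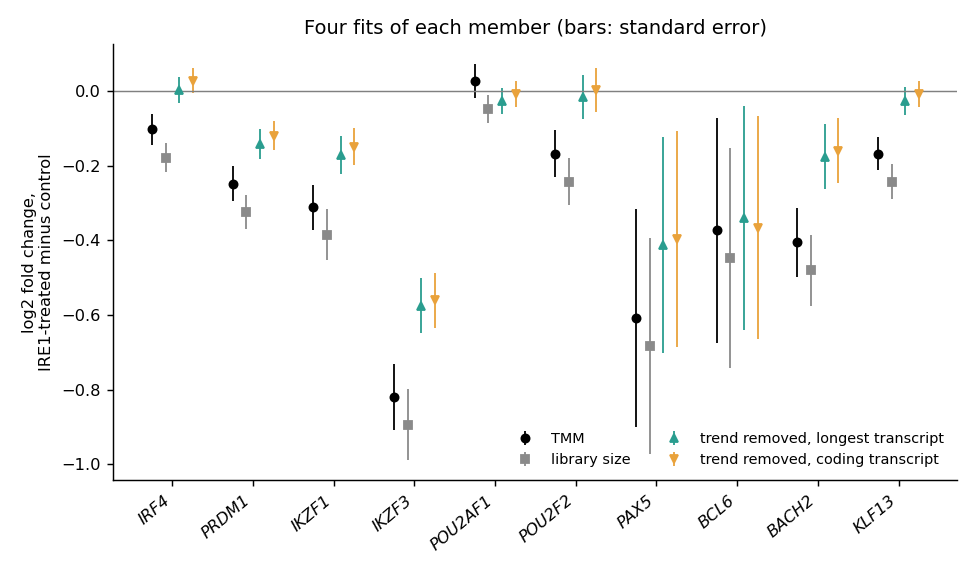
Log2 fold change of each gene with its standard error in 4 fits: TMM scaling, library size, and the length and GC trend taken out with the longest annotated or the longest coding transcript. IKZF3 stays below -0.5 in all 4, while IRF4, POU2F2, POU2AF1 and KLF13 lie near 0 once the trend is removed.

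The relatives of these factors by family were counted from a list of 33. Of these, 29 were tested, 10 passed as lower and 1 as higher (12.4% and 10.3% of all genes), and the median log2 fold change was -0.24. BACH1, the heme-regulated relative of BACH2, was at -0.54, the PR-domain genes PRDM10 and PRDM2 at -0.46 and -0.41, and the Krüppel-like factors KLF11, KLF12 and KLF10 at -0.41, -0.38 and -0.23. BACH1 shares exons with 2 genes on its own strand. IRF3, which switches on interferon genes, was higher at 0.27, and IRF2 was at -0.05 without passing. Without the length and GC trend, 4 passed as lower and 3 as higher (5.35% and 8.22% of all genes). The calls of PRDM10 (-0.31, adjusted p = 0.12, edgeR) and KLF12 (-0.094, adjusted p = 0.57, edgeR) were then lost.

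Among 26 proteins that work with these factors, 5 passed as lower and 4 as higher, or 19.2% and 15.4% of the list against 12.4% and 10.3% of all genes. Those lower included the acetyltransferases EP300 (-0.55) and CREBBP (-0.52) and the corepressors BCOR (-0.40) and NCOR1 (-0.39). The higher ones were the histone deacetylases HDAC1, HDAC2 and HDAC3 and the histone-binding RBBP7. The members of highest level, JUNB (0.04), SMARCA4 (-0.07) and MTA2 (0.06), did not pass. The list's median was -0.04, and with library size 9 passed as lower and 1 as higher (18.0% and 4.74% of all genes). Without the length and GC trend 4 passed as lower and 4 as higher (5.35% and 8.22% of all genes), and the calls of NCOR1 (-0.12, adjusted p = 0.072), HDAC1 (0.11, adjusted p = 0.14) and HDAC3 (0.037, adjusted p = 0.72, all edgeR) were lost.

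Of 14 genes around IRF4 and the Ikaros proteins, 6 passed as lower and 1 as higher (12.4% and 10.3% of all genes), with a median of -0.19. MYC, an oncogene that IRF4 sustains in myeloma, fell from 7708 ± 149 to 5545 ± 306 normalized counts (SD, n = 3), or by -0.47 ± 0.0495 (SE) on the log2 scale (edgeR, adjusted p = 3.8e-05). ZFP91, another substrate that cereblon recruits, was at -0.33 and CSNK1A1, casein kinase 1 alpha, at -0.23. Also lower were the cullin CUL4B (-0.25, adjusted p = 0.046, edgeR), whose groups overlapped, and the kinase CDK6 (-0.21). With each library left out in turn, CUL4B passed in 1 of 6 fits, and CDK6 and CSNK1A1 in 3 of 6 each. Without the length and GC trend CUL4B and CDK6 changed sign, to 0.12 and 0.093. RBX1, the RING subunit of cullin ligases, was higher at 0.37 and has 2 named pseudogenes. DDB1, the ligase's adaptor, was at -0.11 without passing. Without the trend MYC alone passed as lower, at -0.46 (adjusted p = 2.3e-05, edgeR), and CRBN, the gene of cereblon, alone as higher, at 0.29 (adjusted p = 0.015, edgeR), a gene named after its values were seen. Of all genes, 5.35% passed as lower and 8.22% as higher in that fit. RBX1 (0.25, adjusted p = 0.063), ZFP91 (-0.19, adjusted p = 0.078) and CSNK1A1 (-0.081, adjusted p = 0.38, all edgeR) then lost their calls. The call of CRBN depended on the length used. With the trend from coding transcripts none of the 14 passed as higher, where 939 of the 14398 genes tested did. Before the trend was removed CRBN was at 0.11 (adjusted p = 0.25, edgeR).

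The other plasma cell genes moved both ways. Of 19 tested, 6 passed as lower and 5 as higher (12.4% and 10.3% of all genes), and the median was 0.02. FNDC3B fell by 0.53 on the log2 scale, ZBTB38 by 0.52 and CREB3L2, a membrane-bound factor of the secretory pathway, by 0.47. SEC11C, a signal peptidase subunit, rose by 0.35, MZB1, a chaperone of immunoglobulin assembly, by 0.31 and TNFRSF17 (BCMA), a survival receptor, by 0.25. Without the length and GC trend 5 passed as lower and 4 as higher (5.35% and 8.22% of all genes). TNFRSF17 then lost its call at 0.010 (adjusted p = 0.90, edgeR) and MZB1 was at 0.18. With the trend from coding transcripts MZB1 lost its call, at 0.088 (adjusted p = 0.24, edgeR). JCHAIN (0.08) and XBP1 (-0.09) did not pass. XBP1, the main substrate of IRE1, did pass as lower with the trend removed (-0.18, adjusted p = 0.0055), with library size (-0.17, adjusted p = 0.0037) and without IRE1-treated replicate 1 (-0.11, adjusted p = 0.028, all edgeR). In the paper's exon-usage plot, treated samples had clearly fewer XBP1 reads 5′ of the cut and similar reads 3′ of it. The whole-gene count adds both parts and so is not a measure of how much XBP1 was cut. BLOC1S1, a known IRE1 substrate, was at -1.37 ± 0.0950 (SE; edgeR, adjusted p = 1.25e-06).

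Of 22 other B cell genes, 14 were tested and 12 lay below 1 TPM in the controls. MEF2C, a factor of B cell proliferation, was lower at -0.24 and shares exons with 2 antisense genes, so that reads could not be told apart if strand was not used. CD79B, a signalling chain of the B cell receptor, was higher at 0.26 and FCER2 (CD23) at 0.34, where 12.4% of all genes passed as lower and 10.3% as higher. ID3 (0.12) and TCF3 (-0.05), the 2 of highest level, did not pass. The median was 0.11, and without the length and GC trend none of the 14 passed in either direction (edgeR), with 1 lower and 1 higher at an unadjusted p under 0.05. In that fit 5.35% of all genes passed as lower and 8.22% as higher.

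**Figure D5:**
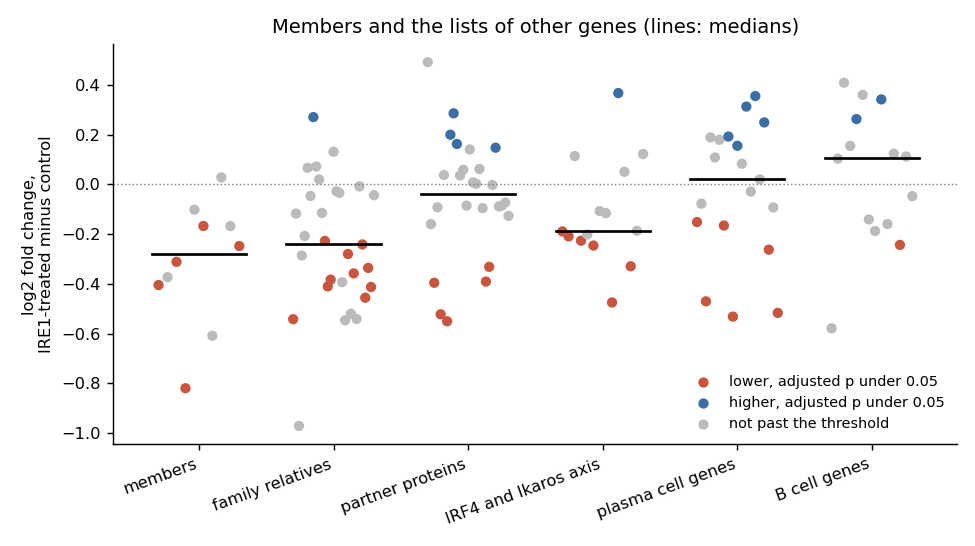
Log2 fold change (IRE1-treated minus control) of the tested genes in the 10 factors and 5 of the lists, with a line at the median. Orange points passed as lower and blue points as higher at an adjusted p of 0.05 (edgeR); the medians plotted run from -0.28 for the 10 factors to 0.11 for B cell genes.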

How the data were processed

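Per the labels and the study's methods, RNA from 3 control and 3 IRE1-treated samples was made into stranded poly(A) libraries. The submitters' processing notes name cutadapt 1.12, STAR 2.5.3a, HTSeq 0.6.1p1 and edgeR 3.24.3, with hg19 as build. The authors deposited raw counts of reads per Ensembl gene, whose strand and overlap settings are not given in the sources used here, and a table of CPM for the more expressed genes, used in an alternative only. The 5 HTSeq summary lines, 21.4 to 23.2% of all counts, were left out.

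The deposited counts were tested with edgeR 4.0.16 in R 4.3.3. Its filter kept 14398 genes out of 24945 with at least 1 count. TMM scaling was followed by the quasi-likelihood test, adjusted by Benjamini-Hochberg at a threshold of 0.05, with the 6 libraries in 1 model of condition only. To give normalized counts, each count was divided by its library's TMM-scaled depth and set to the mean depth. GENCODE release 44 (GRCh37) gave a symbol for 55538 of the 57905 identifiers. Python 3.11.15, scipy 1.17.1 and matplotlib 3.10.9 were used for the rest.

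The alternatives were DESeq2 1.42.0, library size, upper quartile scaling, no filter, at least 10 counts in every library, limma 3.58.1 on log2 CPM with a pseudocount of 1 or 0.1, the replicate number as a block, removal of a loess trend (span 0.5) with length and GC content, and each library left out. The trend with coding transcripts was added after the data were seen. On simulated counts of 14234 genes for this comparison, 85 of 97 genes changed 2-fold and 75 of 100 changed 1.5-fold were recovered, and 6 unchanged genes were called. The simulated counts held no trend with length or GC content. Of the factors that passed, all but IKZF3 changed less than 1.5-fold, so these figures do not give the power or error for them. The genes and lists were chosen with earlier results of these data known. Named from each list were up to 5 genes past the threshold with the largest changes and the 3 of highest level, and other genes named as past the threshold were named after their values were seen. Chi-square per gene was at least 2.20 between any pair of libraries, so none was a copy. Counting error is included in the fits. A few genes of the lists are counted in their totals and not reported here by name.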

Additional observations from a re-analysis of the deposited data

How the results depend on the processing

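Under all the alternatives run, IKZF3 passed as lower in each. The number of the 10 factors past the threshold as lower was 5 as reported and 3 with the length and GC trend removed, with or without the replicate block, and 1 with that trend taken from coding transcripts, with or without the block. It ran from 4 to 7 with each library left out, and none passed as higher in any of these fits (edgeR, DESeq2 or limma). Of all genes, 12.4% passed as lower as reported, 5.35% with the trend removed and 4.49% with that from coding transcripts. With a library left out, those lower ran from 972 of 14542 genes (without control replicate 1) to 2221 of 14553 (without IRE1-treated replicate 3). With library size 7 of the 10 passed as lower, where 18.0% of all genes did, and the median of all genes moved to -0.071. Of the genes called, 79.2% were then lower, against 54.5% as reported and 39.4% without the trend. Over the alternatives the adjusted p ran from 5.3e-19 to 0.0019 for IKZF3, from 3.8e-06 to 0.090 for PRDM1, from 2.8e-06 to 0.077 for IKZF1, from 2.8e-04 to 0.36 for BACH2 and from 0.0022 to 0.95 for KLF13. The cause was not tested. PAX5 and BCL6 were not tested with the CPM table, which does not list them, and DESeq2 gave them no adjusted p. The ratios gave 5 without overlap in the full set and with each library left out. Leaving a library out cannot bring overlap to those 5, so it was no test of them.

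The replicate numbers did not pair the samples: deviations of same-numbered samples correlated at -0.036, -0.0050 and -0.11, and no control correlated best with the treated sample of its own number. With the replicate block 5 of the 10 factors passed as lower, where 1496 of the 14398 genes tested did.

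These signs turned, most at values near 0. With the length and GC trend removed, IRF4 was at 0.0041, POU2AF1 at -0.026, ID3 at -0.10, TCF3 at 0.0060, JCHAIN at -0.086, IRF2 at 0.023, JUNB at -0.071, SMARCA4 at 0.023, CUL4B at 0.12 and CDK6 at 0.093. With the trend removed and the replicate block, IRF4 was at 0.0040, POU2AF1 at -0.026, ID3 at -0.10, TCF3 at 0.0060, JCHAIN at -0.087, IRF2 at 0.023, JUNB at -0.072, SMARCA4 at 0.023, CUL4B at 0.12 and CDK6 at 0.094. With the trend from coding transcripts, IRF4 was at 0.028, POU2AF1 at -0.0076, POU2F2 at 0.0027, MEF2C at 1.4e-05, ID3 at -0.099, TCF3 at 0.025, JCHAIN at -0.077, IRF2 at 0.045, JUNB at -0.062, SMARCA4 at 0.044, CUL4B at 0.13, CDK6 at 0.11 and CD3E at -0.015. With that trend and the replicate block, IRF4 was at 0.028, POU2AF1 at -0.0078, POU2F2 at 0.0048, ID3 at -0.099, TCF3 at 0.025, JCHAIN at -0.078, IRF2 at 0.045, JUNB at -0.062, SMARCA4 at 0.045, CUL4B at 0.13, CDK6 at 0.11 and CD3E at -0.016. With library size, POU2AF1 was at -0.049, JUNB at -0.040 and MTA2 at -0.015. JUNB ran from -0.0061 to 0.073 when single libraries were dropped, the lowest without IRE1-treated replicate 2. With the union of exons, the log2 level of POU2AF1 over IRF4 was -0.92, against 0.20 with the longest transcript.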

Other observations

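Among markers of other cell types, CD3E, a chain of the T cell receptor complex, had 890 to 1063 counts per library, while CD3D had at most 1 count and CD8A at most 1. CD3E was at 38.2 TPM in the controls and 38.6 TPM in the IRE1-treated samples, with a log2 fold change of 0.16 that did not pass (adjusted p = 0.13, edgeR). NKG7 (0.26) and CSF1R (-0.46) also did not pass. The other 11 genes of that list of 14 did not pass the filter on low counts.

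Among B cell genes, ID3, an inhibitor of E proteins, was at 769 TPM and its target TCF3 at 559 TPM in the controls, close to IRF4, while CD74 and HLA-DRA, which serve antigen presentation, were at 0.0354 and 0.161 TPM.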
